A study of Mus musculus with 48 samples.

Results

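The Id genes Id1, Id2, Id3 and Id4 were followed through 48 hourly samples of NIH3T3 cells, an immortalised line of mouse embryonic fibroblasts, from 20 to 67 h after forskolin. All probe sets with the platform symbol of an Id gene were taken, and the probe set with the highest mean led for its gene. The 4 genes, of 18193 named on the array, held 8 of 45037 probe sets: 1 for Id1, 3 for Id2, 1 for Id3 and 3 for Id4. Cells had been grown to confluence, and forskolin, which raises cyclic AMP, was used to set their circadian clocks to a common time. Total RNA of 1 culture per hour was hybridised to 1 Affymetrix mouse genome array. Every culture had received forskolin, so no untreated or unsynchronised cells were compared. The 48 arrays were also read as 2 windows of 24 arrays, hours 44 to 67 and hours 20 to 43. With 1 culture per hour, p-values measure the spread of single arrays around a fitted course. Time since forskolin and time in culture cannot be told apart.

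Id proteins carry a helix-loop-helix domain but lack the basic region that contacts DNA. They bind E proteins such as Tcf3, Tcf4 and Tcf12 and hold them off their E-box sites, which keeps tissue-specific helix-loop-helix factors inactive. Their genes are classical direct targets of bone morphogenetic proteins (BMPs). A BMP ligand joins type I and type II receptors, these phosphorylate Smad1, Smad5 and Smad9, and the Smads enter the nucleus with Smad4. Secreted antagonists such as noggin and chordin hold the ligand away from the receptor. In fibroblasts Id genes also respond to serum and are linked to proliferation and to the delay of differentiation.

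In the RefSeq annotation of GRCm38.p6, Id1 lay at chr2:152736251-152737410, Id2 at chr12:25093799-25096092, Id3 at chr4:136143822-136145392 and Id4 at chr13:48261116-48266028. The 250 bases before the annotated start are shown for Id2, Id3 and Id4. They are read 5′ to 3′ on the strand of the gene and taken from RefSeq (GRCm38.p6). The windows were chr12:25096093-25096342 (minus strand), chr4:136143572-136143821 (plus strand) and chr13:48260866-48261115 (plus strand). Capitals mark matches to 6 searched motifs on either strand. CCAAT is the box bound by NF-Y. The letters GGCGCC are a core of BMP-responsive Smad sites. The Smad box was searched as GTCTG. Part of the cyclic AMP response element was searched as TGACG. The canonical E-box was searched as CACGTG, and the TATA box as TATAA.
Id2: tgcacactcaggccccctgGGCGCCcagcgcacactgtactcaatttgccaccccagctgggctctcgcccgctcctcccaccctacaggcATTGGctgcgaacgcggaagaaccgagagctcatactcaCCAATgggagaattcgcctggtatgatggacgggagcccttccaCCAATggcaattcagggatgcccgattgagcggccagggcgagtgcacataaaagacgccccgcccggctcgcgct
Id3: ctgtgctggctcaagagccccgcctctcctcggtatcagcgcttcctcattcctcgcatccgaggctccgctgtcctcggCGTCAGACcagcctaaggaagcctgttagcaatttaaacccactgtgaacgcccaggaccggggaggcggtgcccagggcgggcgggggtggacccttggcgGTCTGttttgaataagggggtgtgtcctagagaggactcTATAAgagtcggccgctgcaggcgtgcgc
Id4: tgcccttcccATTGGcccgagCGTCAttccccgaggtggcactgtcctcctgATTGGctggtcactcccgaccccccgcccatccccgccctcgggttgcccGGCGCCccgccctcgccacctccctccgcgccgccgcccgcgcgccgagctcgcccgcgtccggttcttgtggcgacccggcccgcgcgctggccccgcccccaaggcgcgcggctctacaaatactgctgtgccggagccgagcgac

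The Id2 window held 3 CCAAT matches and 1 GGCGCC. The Id3 window held 2 GTCTG matches, 1 TGACG match that overlapped the distal GTCTG, and 1 TATAA match that began 29 bases before the start. The Id4 window held 2 CCAAT matches, 1 TGACG match and 1 GGCGCC. Id1 had no window in the RefSeq set used, so it is not covered here. No motif of the 6 was found in all 3 windows, and CACGTG was found in none. Other forms of the E-box were not searched, so the windows can hold E-box letters that are not marked. Of 32851 RefSeq windows of the same length, 33.8% held the CCAAT box, 9.59% the BMP-responsive Smad core, 42.2% the Smad box, 17.8% the cyclic AMP element part, 6.02% the canonical E-box and 22.8% the TATA box. A match describes letters only.

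The arrays had medians of 6.58 to 6.71 on the log2 scale and were used as deposited. All 9 fibroblast markers, with the collagen genes Col1a1, Col1a2 and Col3a1 among them, had means of 16.40 to 19.01, above the upper quartile of all probe sets (13.20). All 10 measured markers of endothelium, epithelium and skeletal muscle lay below the median probe set. Of the 3 macrophage markers, Ptprc and Adgre1 lay below it and Cd68 averaged 10.42, above it. Of the 3 neuron markers, Tubb3 and Rbfox3 lay below it and Map2, at 7.61, above it. Of the 2 adipocyte markers, Adipoq averaged 5.39, below the median probe set, and Fabp4 15.79. In 10 arrays (hours 20, 22, 24, 36, 38, 40, 43, 45, 46 and 67) the beta-actin 3′ control probe set exceeded the 5′ one by more than 1.4 on the log2 scale, against a median of 1.13 over all arrays. Such a difference is a common measure of RNA or cDNA length. The BioB hybridisation controls were 0.90 higher at hours 52 to 55 than in the other arrays.

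Id1 fell throughout the course. Its leading probe set (1425895_a_at) read 13.60, 14.12, 13.34, 14.32, 13.89 and 13.84 on the log2 scale at hours 20 to 25. At hours 62 to 67 it read 9.54, 9.51, 9.91, 9.84, 9.05 and 9.87, so that every late array was far below every early one. Its means over successive 6 h were 13.85, 12.98, 12.32, 11.74, 11.41, 10.91, 10.21 and 9.62. The level in the last 6 h was 18.8-fold lower than in the first 6 h (9.62 ± 0.33 against 13.85 ± 0.35, SD, n = 6 each).

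The fitted slope of Id1 was −0.0909 ± 0.00353 log2 per hour (SE, adjusted p = 1.93e-25), which halved the signal every 11 h and ranked 19 among 45037 probe sets from the steepest fall. Of the 8 Id probe sets, 7 passed the test for a falling trend, beside 16.2% of all probe sets, and by limma 0 passed for a rising trend, beside 14.2%, with 0 at an unadjusted p under 0.05 since no slope was positive. At that unadjusted p, 32.8% of all probe sets had a falling slope and 16.8% a rising one. The slopes of the Id probe sets thus stood among a large set of falling transcripts. In total RNA, fewer cells of a type and less RNA per cell cannot be told apart.

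Id3 fell in step with Id1 but less steeply. It read 16.09, 16.35, 15.80, 16.69, 16.44 and 16.29 at hours 20 to 25, and 14.09, 14.08, 14.40, 14.20, 13.93 and 13.83 at hours 62 to 67. The 6 h means were 16.28, 15.76, 15.25, 14.99, 14.89, 14.62, 14.39 and 14.09. The slope was −0.0450 ± 0.00251 log2 per hour (adjusted p = 8.15e-20), a halving every 22.2 h, and the last 6 h were 4.55-fold below the first 6 h.

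Id2 (leading probe set 1435176_a_at) fell less steeply than Id3, with a small difference between its first and second 6 h. It read 15.997, 15.98, 15.90, 16.06, 16.07 and 16.13 at hours 20 to 25, and 14.47, 14.67, 14.86, 14.69, 14.51 and 14.67 at hours 62 to 67. The 6 h means were 16.02, 15.93, 15.50, 15.17, 15.09, 14.82, 14.82 and 14.64. The first 3 of these had SDs of 0.08, 0.14 and 0.16 (n = 6 each). The slope was −0.0338 ± 0.00190 log2 per hour (adjusted p = 1.04e-19), a halving every 29.6 h, and the last 6 h were 2.60-fold below the first.

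Id4 (leading probe set 1450928_at) fell least. It read 16.06, 16.13, 16.32, 16.19, 16.15 and 16.17 at hours 20 to 25, and 15.51, 15.57, 15.59, 15.62, 15.61 and 15.70 at hours 62 to 67. The 6 h means were 16.17, 16.04, 15.91, 15.78, 15.78, 15.75, 15.64 and 15.60. The slope was −0.0116 ± 0.000796 log2 per hour (adjusted p = 1.08e-16), and the last 6 h were 1.49-fold below the first. Single arrays scattered little around the fitted course, with a residual SD of 0.07 against 0.31 for Id1, 0.22 for Id3 and 0.17 for Id2.

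**Figure D1:**
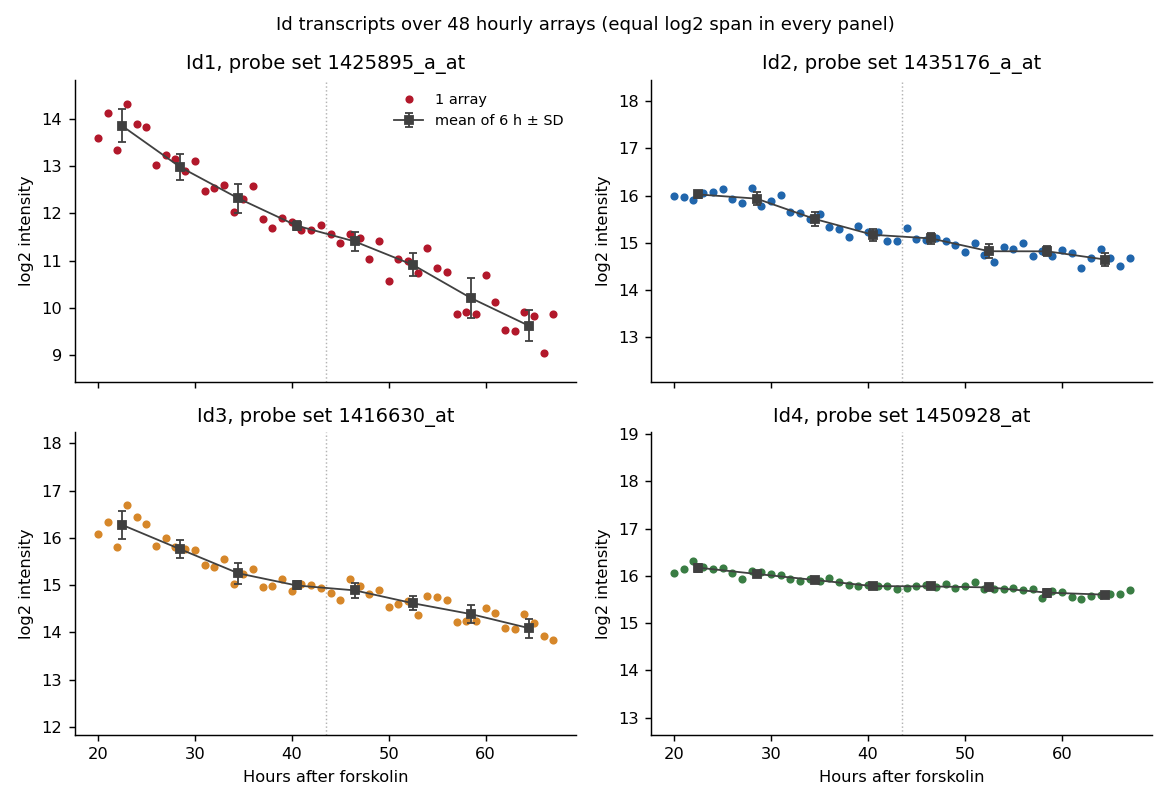
Log2 intensity (y axis) of the leading probe set of each Id gene against hours after forskolin (x axis). Coloured points are single arrays, dark squares are means of 6 h with SD (n = 6), the dotted line separates the windows, and every panel spans the same log2 range. Id1 fell 18.8-fold between the first and last 6 h and Id4 1.49-fold.

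The slopes of the 4 leading probe sets differed from one another in all 6 pairs. In the same model fitted to the difference of 2 series, Id1 fell faster than Id3 by 0.0460 ± 0.00228 log2 per hour (95% interval of the difference −0.0505 to −0.0414). Id2 and Id3 were the closest pair, with Id2 less steep by 0.0112 ± 0.00227 (interval 0.00662 to 0.0158). Id4 was less steep than Id2, with a difference of Id2 minus Id4 of −0.0221 ± 0.00176 (interval −0.0257 to −0.0186). Probe sets of 1 gene also differed, for Id4 by more than the gap between Id2 and Id3 but by less than the other gaps. For Id4, probe set 1423259_at minus the leading probe set gave −0.0130 ± 0.00212 (interval −0.0173 to −0.00877). The order Id1, Id3, Id2, Id4 is therefore an order of probe sets, and the size of the gap between Id2 and Id4 depends on the probe set chosen. With the first principal component of all probe sets removed, the slopes were less steep, at −0.0298 for Id1 (adjusted p = 0.0135), −0.0135 for Id2 (0.0130), −0.0147 for Id3 (0.0243) and −0.00387 for Id4 (0.0396). That component correlated with the hour (absolute r = 0.79) and with the beta-actin difference (absolute r = 0.73).

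The further probe sets of Id2 and Id4 fell with the leading ones. For Id2, 1422537_a_at had a slope of −0.0371 ± 0.00333 log2 per hour, and its difference from the leading probe set had an interval that spanned 0 (−0.00882 to 0.00211). The third Id2 probe set, 1453596_at, read 5.47 to 5.51 in all arrays, near the floor of the scale, and did not pass (slope −0.000211, adjusted p = 0.0664). For Id4, 1423259_at had a slope of −0.0247 ± 0.00200 (adjusted p = 2.55e-14), about the size of that of 1423260_at, −0.0235 ± 0.00490 (adjusted p = 0.000141).

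Of these further probe sets, 3 of 4 also moved with the beta-actin difference. How many of all probe sets did so was not counted, so this is not read as a trait of Id genes. After removal of the linear term and the 24 h cosine, the correlation with it over the 48 arrays was 0.78 for Id4 1423260_at, 0.72 for Id4 1423259_at, −0.72 for Id2 1422537_a_at and −0.09 for the floor-level Id2 1453596_at. For the leading probe sets it was 0.04 (Id1), −0.19 (Id2), −0.16 (Id3) and 0.01 (Id4). Id4 1423260_at read 11.22, 10.43, 11.42, 10.41 and 10.44 at hours 20, 24, 36, 40 and 45, against 9.40 at hour 37 and 9.40 at hour 39. In the other arrays of high beta-actin difference it read 9.76, 9.41, 9.40, 9.89 and 8.87 at hours 22, 38, 43, 46 and 67, so that not every such array was high. Without the 10 arrays of high beta-actin difference the slope of Id4 1423260_at was −0.0132 ± 0.00235. That of Id4 1423259_at was −0.0219 ± 0.00156, still steeper than that of the leading Id4 probe set, and that of Id2 1422537_a_at was −0.0420 ± 0.00272. The slopes of the leading probe sets of Id1 (−0.0930), Id2 (−0.0360), Id3 (−0.0453) and Id4 (−0.0116) stayed close to those over all arrays. All 8 Id probe sets then passed the falling trend test, the floor-level one included, beside 29% of all probe sets in the same fit.

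**Figure D2:**
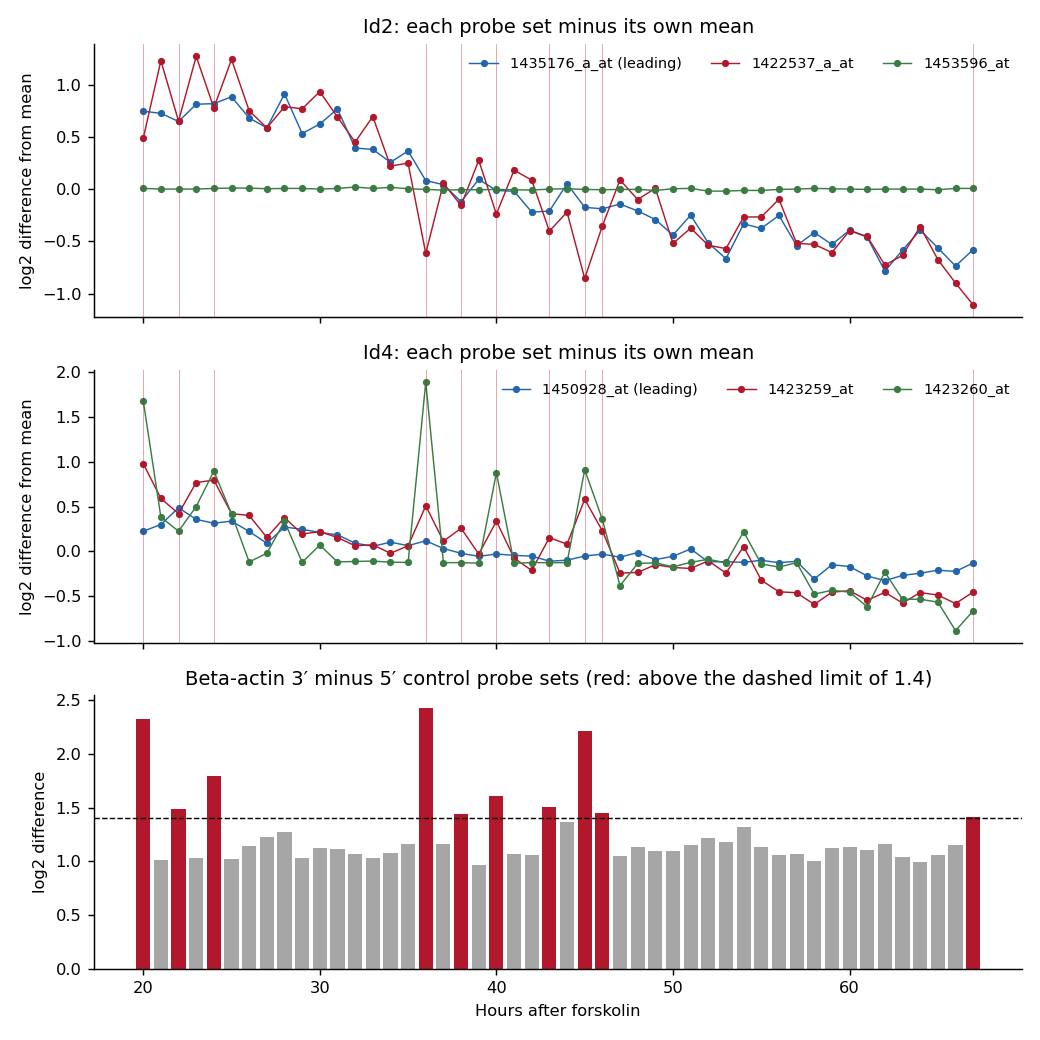
Top and middle, log2 difference of each Id2 and Id4 probe set from its own mean against hours after forskolin; bottom, log2 difference of the beta-actin 3′ and 5′ control probe sets per array, with the 10 arrays above 1.4 in red and marked by thin lines above. Id4 1423260_at (green, middle) peaked at hours 20, 24, 36, 40 and 45, where the beta-actin difference was high, but not at hours 38, 43 and 67, where it also exceeded 1.4, and the Id2 probe set 1453596_at (green, top) stayed at its floor.

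Arrays 24 h apart were then set against each other, so that a daily rhythm would cancel. Id1 had a lowest, median and highest value of 9.05, 10.72 and 11.56 in hours 44 to 67, and of 11.64, 12.58 and 14.32 in hours 20 to 43. The windows of Id1 did not overlap, which was true of 0.0555% of all probe sets in this direction. The later window of Id1 was lower by 2.19 ± 0.08 on the log2 scale (SE, 24 pairs, adjusted p = 1.68e-16), and every later array was below its partner.

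The windows of the other Id genes overlapped. Id3 had a lowest, median and highest value of 13.83, 14.52 and 15.12 in hours 44 to 67, and of 14.87, 15.49 and 16.69 in hours 20 to 43. For Id2 they were 14.47, 14.85 and 15.30 in hours 44 to 67, and 15.03, 15.71 and 16.16 in hours 20 to 43. For Id4 they were 15.51, 15.71 and 15.86 in hours 44 to 67, and 15.72, 15.94 and 16.32 in hours 20 to 43. In 24 of 24 pairs the later array was the lower one for each of these 3 genes.

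The window differences were −1.07 ± 0.07 for Id3 (adjusted p = 1.48e-11), −0.81 ± 0.06 for Id2 (4.18e-11) and −0.28 ± 0.02 for Id4 (1.10e-09). Of the 8 Id probe sets, 7 were lower in hours 44 to 67, beside 12.2% of all probe sets, and by limma 0 were higher, beside 11.7%, with 0 at an unadjusted p under 0.05 since no difference was positive. The probe set that did not pass was the floor-level Id2 one (adjusted p = 0.115). With the first principal component removed the differences were −0.82 for Id1 (adjusted p = 0.0260), −0.36 for Id2 (0.0286) and −0.40 for Id3 (0.0431), and Id4 lost the call (−0.11, 0.0646).

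**Figure D3:**
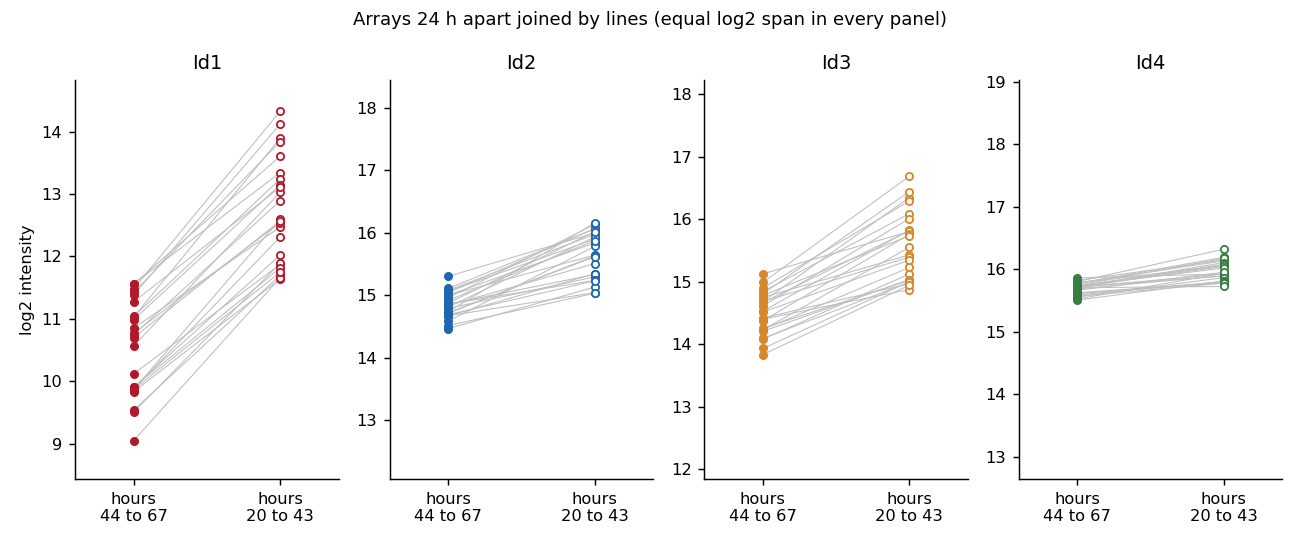
Log2 intensity (y axis) of each leading probe set in the 24 arrays of hours 44 to 67 (filled points, left) and of hours 20 to 43 (open points, right), with arrays 24 h apart joined by grey lines. Every line runs lower on the left, and only the windows of Id1 do not overlap.

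The fall of the leading probe sets of Id2, Id3 and Id4 slowed. The coefficient of the squared time from the middle of the course, in units of 24 h, was 0.31 ± 0.07 for Id2 (adjusted p = 0.00246), 0.33 ± 0.10 for Id3 (0.0347) and 0.12 ± 0.03 for Id4 (0.00681), all on the log2 scale. For Id1 it was 0.20 ± 0.15 and did not pass (0.295). The further probe sets did not pass, and those of Id4 had the opposite sign: −0.02 ± 0.09 for 1423259_at (adjusted p = 0.882) and −0.15 ± 0.22 for 1423260_at (0.606). For Id2 1422537_a_at it was 0.39 ± 0.14 (0.0687). A positive curvature passed in 3 of 8 Id probe sets, beside 3.21% of all probe sets. In means of 12 h, Id2 dropped by 0.64, then 0.38, then 0.22 between successive blocks, whereas Id1 dropped by 1.39, then 0.87, then 1.25. Id4 lost the call without the arrays of high beta-actin difference (0.11 ± 0.03, adjusted p = 0.0788).

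No Id probe set passed the test for a 24 h cosine, beside 0.293% of all probe sets, for a 12 h cosine (0%) or for an 8 h cosine (0%), by limma with adjustment over all probe sets. At an unadjusted p under 0.05 the counts were 3, 0 and 3 of 8. The shares of all probe sets at that unadjusted p were not counted, so these counts are not read as an excess. For the 8 h cosine the 3 had adjusted p-values of 0.0537 (Id2 1422537_a_at), 0.0537 (Id2 1453596_at) and 0.0726 (Id4 1423259_at). The adjustment raised the p-value of Id2 1453596_at only from 0.0107 to 0.0537, so low 8 h p-values were common over all probe sets. The 24 h amplitudes, from mean to peak, were 0.17 ± 0.07 for Id1 (adjusted p = 0.563), 0.04 ± 0.03 for Id2 (0.956), 0.13 ± 0.05 for Id3 (0.507) and 0.05 ± 0.02 for Id4 (0.315). On the same arrays Nr1d2 and Per3, transcripts of the circadian clock, had amplitudes of 0.82 ± 0.03 (adjusted p = 2.23e-24) and 0.95 ± 0.05 (3.12e-19). A missed test does not show that an Id transcript had no daily rhythm. Each fitted amplitude of the 4 leading probe sets was well below those of Nr1d2 and Per3, but not below those of all clock genes. Of 12 core clock genes 9 passed the 24 h cosine. Arntl (0.16 ± 0.04, adjusted p = 0.0780), Per1 (0.22 ± 0.05, 0.138) and Clock (0.06 ± 0.04, 0.922) did not, and the amplitude of Id1 was close to that of Arntl.

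Fisher's G-test, which takes no account of a trend, passed in 7 of 8 Id probe sets, beside 46.3% of all probe sets. For each of the 8 the strongest period was 48 h, the length of the whole course. None was strongest at 24 h.

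The 24 h cosine was also allowed to differ between the windows. The test takes a change of amplitude and a change of phase together, so its p-values are not of the amplitude difference alone. Over all probe sets 49% passed this test (22085), and 819 passed once a term for hours 52 to 55 was added. Among the leading probe sets it passed for Id2 and Id3. For Id2 the fitted amplitude was 0.12 in hours 44 to 67 and 0.21 in hours 20 to 43 (adjusted p = 0.000178). For Id3 it was 0.05 in hours 44 to 67 and 0.28 in hours 20 to 43 (0.00276). The other Id2 probe sets also passed (1422537_a_at, 0.0101, and 1453596_at, 0.00196). The leading probe sets of Id1 and Id4 did not pass (0.435 and 0.241). With a quadratic trend Id3 lost the call (adjusted p = 0.139), while Id2 passed (0.0254). Without the arrays of high beta-actin difference the amplitude of Id2 in hours 44 to 67 minus that in hours 20 to 43 was −0.0124, against −0.0826 with all arrays, and the test passed (0.00453).

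The 4 leading probe sets ran closely together over the 48 arrays. Pearson's r was 0.98 for Id1 and Id3 (Spearman's rho 0.98), 0.95 for Id1 and Id2 (0.96), 0.94 for Id2 and Id3 (0.96), 0.92 for Id1 and Id4 (0.93), 0.92 for Id2 and Id4 (0.92) and 0.91 for Id3 and Id4 (0.91). Hours of 1 course share its trend and are not independent samples, so no p is given. Once the linear term and the 24 h cosine were removed, r was 0.77 for Id1 and Id3, 0.51 for Id2 and Id3, 0.39 for Id2 and Id4, 0.38 for Id1 and Id2, 0.21 for Id1 and Id4 and 0.17 for Id3 and Id4.

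Id1 and Id3 also shared their changes from 1 hour to the next, with r = 0.83, against 0.45 for Id1 and Id2 and −0.04 for Id1 and Id4. Both dropped at hour 22 and were highest at hour 23: the difference from the mean of the neighbouring hours was −0.88 for Id1 and −0.72 for Id3 at hour 22, and 0.71 for Id1 and 0.57 for Id3 at hour 23. Hour 22 was among the arrays of high beta-actin difference. Each of the Id genes is measured on the same array at each hour, so array-wide differences are shared too.

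**Figure D4:**
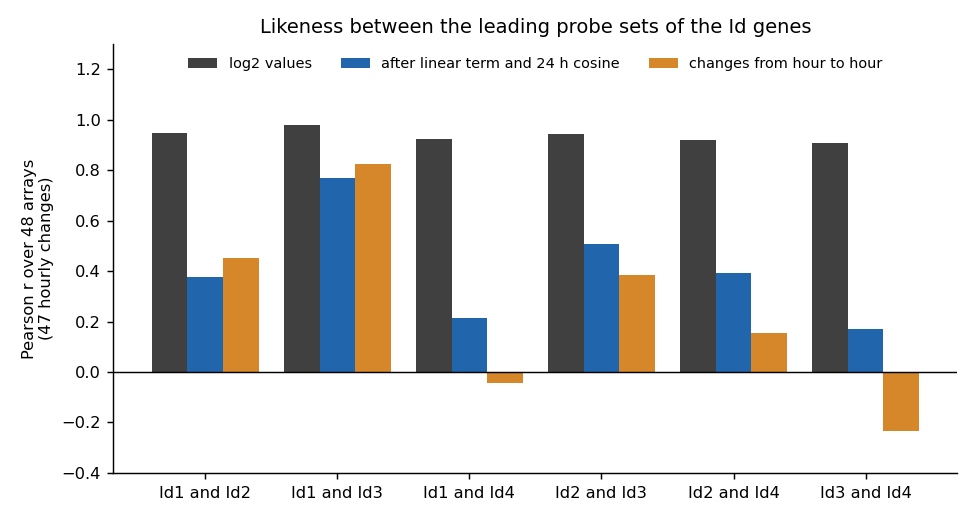
Pearson r (y axis) between the leading probe sets of each pair of Id genes (x axis) for log2 values, for residuals after the linear term and 24 h cosine, and for changes from hour to hour. All pairs exceed 0.9 on log2 values, while only Id1 and Id3 stay above 0.7 on the other measures.

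Likeness was ranked over 19212 other probe sets that had a single symbol and lay above the median level. Id3 had the course most like that of Id1, and Id1 that most like Id3 (r = 0.98), also on residuals. The next probe sets by r with Id1 were Lxn (latexin, a carboxypeptidase inhibitor, r = 0.97), Tk1 (thymidine kinase, 0.97), Phlda1 (0.97) and Cdca3 (a mitotic entry factor, 0.97). After Id1, those nearest to Id3 were Sgo1 (shugoshin, which guards centromeric cohesion, 0.96), Tk1 (0.96), Lxn (0.96) and Cenpm (a centromere protein, 0.96). Their slopes lay between −0.0247 (Lxn) and −0.0440 (Cenpm) log2 per hour, all less steep than that of Id1.

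Id2 was nearest to Ahr (the aryl hydrocarbon receptor, r = 0.97), Mad2l1 (a spindle checkpoint protein, 0.97), Far1 (a fatty acyl-CoA reductase, 0.96), Cd44 (the hyaluronan receptor, 0.96) and Rgs2 (a regulator of G protein signalling, 0.96). Id4 was nearest to Hmmr (0.94), Clspn (claspin of the replication checkpoint, 0.93), Ahr (0.93), Igfbp7 (0.93) and Nr4a2 (an orphan nuclear receptor, 0.93). Id1 and Id3 ranked 22 and 25 for likeness to Id2, and Id1 and Id2 ranked 11 and 15 for likeness to Id4. On residuals Id4 ranked 2416 for likeness to Id1 and 3919 for likeness to Id3.

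The other genes of the pathway were read by their brightest probe set, beside 16.2% of all probe sets that fell and 14.2% that rose. The 10 measured BMP ligands, Bmp2, Bmp4 and Bmp7 among them, had means of 5.36 to 5.78, near the floor of the scale, and 0 of 10 passed in either direction by limma, with 3 lower and 0 higher at an unadjusted p under 0.05, beside 32.8% and 16.8% of all probe sets. The median slope of the list was −0.000182 log2 per hour, against −0.000142 over all probe sets.

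Of 11 receptors and co-receptors, 2 rose and 0 fell by limma, beside 14.2% and 16.2% of all probe sets (3 and 2 at an unadjusted p under 0.05). Rgmb, a BMP co-receptor, averaged 15.84 ± 0.10 in the last 12 h and 14.81 ± 0.15 in the first 12 h (SD, n = 12 each), with a slope of 0.0270 ± 0.00139 log2 per hour (adjusted p = 6.20e-21). Bmpr2, the type II BMP receptor, averaged 16.32 ± 0.06 in the last 12 h and 16.22 ± 0.04 in the first (adjusted p = 4.18e-05). The type I receptors Bmpr1a (16.22 ± 0.06 and 16.13 ± 0.18) and Acvr1 (14.67 ± 0.08 and 14.59 ± 0.17) did not pass.

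Of 12 Smads and their regulators, 3 rose and 2 fell, beside 14.2% and 16.2% of all probe sets, and 7 did not pass. Smad5, a BMP-activated Smad, rose with a slope of 0.0100 log2 per hour, and Skil, a Smad corepressor, with 0.0110. Tob1, an antiproliferative protein that binds Smads, fell with −0.0108. Smad6, an inhibitory Smad, had a slope of −0.0105 (adjusted p = 0.0413), but its median was 5.53 and its highest value, 7.44, came at hour 36. Without the arrays of high beta-actin difference its slope was −0.00138 and missed the test (adjusted p = 0.108). Smad1 (slope 0.00225, adjusted p = 0.171) and Smad4 (−0.00200, 0.0844) did not pass.

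Of 16 secreted BMP inhibitors and modulators, 8 fell and 0 rose by limma (8 and 1 at an unadjusted p under 0.05). The steepest were Nbl1 (a DAN-family antagonist, slope −0.0154 log2 per hour), Fst (follistatin, −0.0140), Bmper (a BMP-binding protein, −0.0112) and Fstl3 (a follistatin-like protein, −0.00946). Sost, also among the 8 that fell, had a slope of −0.000447 (adjusted p = 0.0172) at a mean of 5.56, near the floor. Nog, the gene of noggin, stayed at 5.33 to 5.35 and Grem1 averaged 5.58. The list's median slope was −0.00221, against −0.000142 over all probe sets.

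Of 13 other BMP target genes, 5 fell and 0 rose by limma (6 and 0 at an unadjusted p under 0.05). Atoh8, a helix-loop-helix factor induced by BMP, averaged 8.68 ± 0.64 in the last 12 h and 11.83 ± 0.69 in the first 12 h, with a slope of −0.0799 ± 0.00644 log2 per hour (adjusted p = 2.29e-14), the nearest of the list to that of Id1. Bambi, a decoy receptor, averaged 8.92 ± 0.39 in the last 12 h and 10.16 ± 0.79 in the first (slope −0.0317). Junb (slope −0.0285) and Alpl (alkaline phosphatase, −0.0186) also fell, toward the floor of the scale. The fifth was Smad6, described above, and 7 of the 8 targets that did not pass, such as Msx1, Msx2 and Dlx5, had means below the median probe set. The eighth was Smad7, an inhibitory Smad, which averaged 13.85 ± 0.12 in the last 12 h and 14.21 ± 0.38 in the first 12 h (slope −0.00756, adjusted p = 0.103). Without the arrays of high beta-actin difference Smad7 passed, with a slope of −0.0139 (adjusted p = 4.13e-05).

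**Figure D5:**
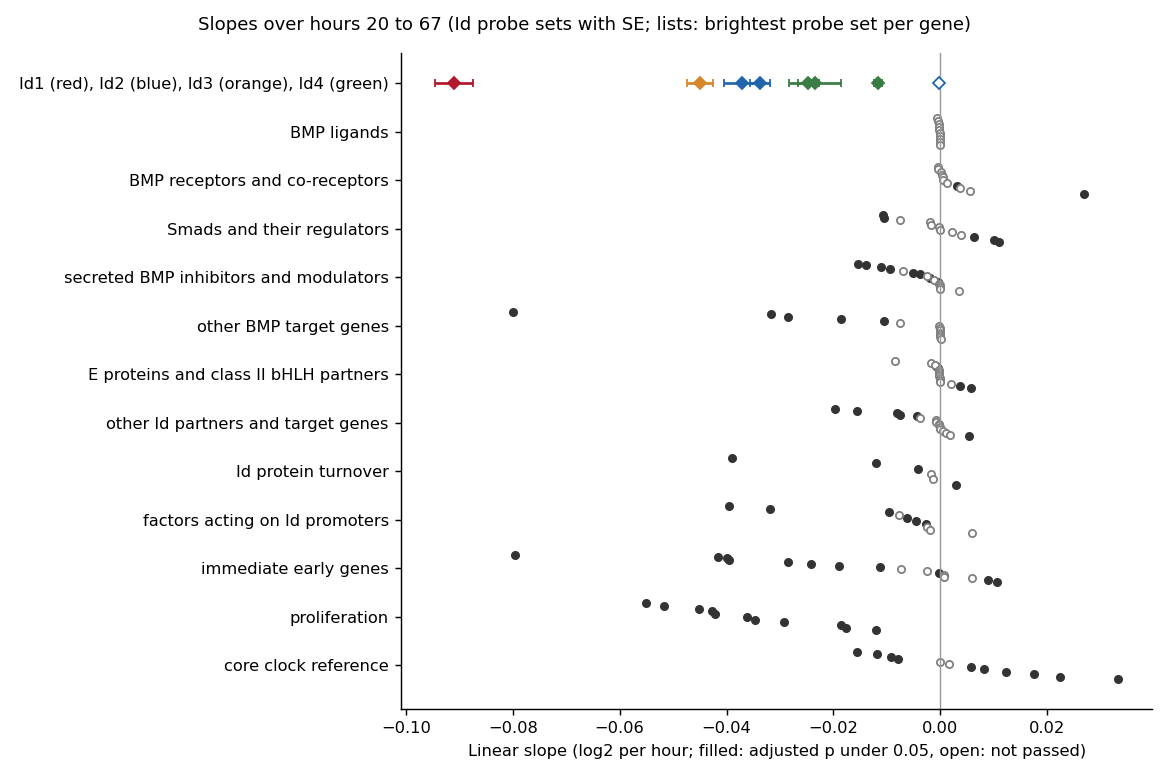
Slope over hours 20 to 67 in log2 per hour (x axis) of the 8 Id probe sets (diamonds with SE) and of the brightest probe set of each gene in 12 lists (circles), filled where the trend test passed. Atoh8 at −0.0799 is the other BMP target nearest to Id1, BMP ligands lie near 0, and all 11 proliferation genes lie below 0.

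Of 15 E proteins and class II partners, 2 rose and 2 fell, beside 14.2% and 16.2% of all probe sets. The partners Tcf4 (slope 0.00569 log2 per hour, adjusted p = 8.14e-07) and Tcf12 (0.00370, adjusted p = 0.00152) rose slightly, and Tcf3 did not pass (−0.00842, adjusted p = 0.0780). Myf5 and Scx passed with slopes of −0.000753 and −0.000462 log2 per hour at mean levels of 5.67 and 5.61, near the floor. Tcf4 averaged 17.72 ± 0.03 in the last 12 h and 17.54 ± 0.11 in the first.

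Of 16 other Id partners and target genes, 5 fell and 1 rose, beside 16.2% and 14.2% of all probe sets. Rbl1, the gene of the pocket protein p107, fell with a slope of −0.0196 log2 per hour, Srebf1 with −0.0155, Ets1 with −0.00811 and Cdkn1a, the gene of p21, with −0.00748. Of 6 genes of Id protein turnover, 3 fell and 1 rose. Cdc20, an activator of the anaphase-promoting complex, fell with −0.0390, Usp1, which removes ubiquitin from Id proteins, with −0.0120 and Fzr1, the second activator of that complex, with −0.00410. Anapc2, a subunit of it, rose with 0.00298.

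Of 10 factors that act on Id promoters, 6 fell and 0 rose by limma (8 and 1 at an unadjusted p under 0.05). Atf3, which represses ID1 downstream of TGF-beta in human epithelial cells, fell with a slope of −0.0396 log2 per hour, Myc with −0.0318, Crem, a cyclic AMP response factor, with −0.00966 and Yy1 with −0.00614. Crem was also the only one of these 10 to pass the 24 h cosine (amplitude 0.12 ± 0.03, peak at hour 33.0, adjusted p = 0.0457). Egr1 did not pass the trend (slope 0.00598, adjusted p = 0.0501).

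Of 16 immediate early genes, 9 fell and 2 rose. Among the 9, Fosb had a slope of −0.000244 log2 per hour (adjusted p = 0.0381) at a mean of 5.42, near the floor. Nr4a1, an orphan nuclear receptor induced by cyclic AMP, fell with a slope of −0.0796 log2 per hour, Egr3 with −0.0416, Fosl1 with −0.0400 and Atf3 as above. All 11 measured proliferation genes fell, with a median slope of −0.0362 log2 per hour, which lies between those of Id2 and Id3. The steepest were Bub1 (a mitotic checkpoint kinase, −0.0551), Plk1 (−0.0517), Aurkb (−0.0451) and Mki67 (the gene of Ki-67, −0.0427). The part of proliferation in the Id slopes was not tested. Of 12 core clock genes, 9 passed the 24 h cosine, 6 rose and 4 fell in the linear term.

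Without the arrays of high beta-actin difference 29% of all probe sets fell and 15% rose, and several list counts were larger. BMP ligands then had 3 of 10 that fell, and the receptors and co-receptors 2 of 11 that fell and 5 that rose. Of the 12 Smads and regulators 4 fell, and of the 16 secreted inhibitors and modulators 2 rose. Of the 15 E proteins and partners 5 fell, and of the 16 other Id partners and target genes 9 fell. Of the 10 factors that act on Id promoters 1 rose.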

How the data were processed

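RNA of NIH3T3 cells was hybridised to 48 arrays, 1 per hour. The deposited values were linear probe set intensities, which the authors had corrected for background and normalized. The study's methods name GCRMA for expression, whereas the submitters' processing notes name MAS5 only. Neither comes with a version (not given in the sources used here). Intensities were taken to log2 with no added constant and no filter, and 64 control probe sets were left out. Platform symbols were updated through gene identifiers (34945 probe sets with 1 symbol, 932 with several, 9160 with none). An hour term and a 24 h cosine were fitted in 1 model with limma 3.58.1 in R 4.3.3, with Benjamini-Hochberg adjustment over 45037 probe sets at 0.05. Windows were compared with the hour of the cycle as a block. A 12 h or 8 h cosine, a quadratic term and a window by cosine interaction were added in turn. COSOPT was not run. The G-test of Fisher took the exact p. Residual likeness was computed after the hour term and the cosine. The scripts were tested on simulated data. The members and lists were chosen with earlier results of these data known. Each list names up to 4 genes with the largest slope past the test, genes past the cosine, and further members given as values. Tables were handled with pandas 2.3.3 and numpy 2.4.6, statistics with scipy 1.17.1 and figures with matplotlib 3.10.9, in Python 3.11.15. The labels gave no processing batch, and the number of arrays limits the precision.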

Additional observations from a re-analysis of the deposited data

Results flagged for a closer look

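The change of the 24 h cosine between the windows passed its test for Id2 and Id3. The amplitude in hours 44 to 67 minus that in hours 20 to 43 was −0.0826 on the log2 scale for Id2 (adjusted p = 0.000178) and −0.226 for Id3 (adjusted p = 0.00276). Over all probe sets 49% passed in this fit, so the calls in it are not particular to Id genes. With a term for hours 52 to 55, 819 of 45037 probe sets passed, Id2 (adjusted p = 0.00192) and Id3 (0.0408) among them. With a quadratic trend 16515 probe sets passed, Id2 among them (adjusted p = 0.0254), and Id3 did not (0.139).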

How the results depend on the processing

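The slopes of the 4 leading probe sets kept their sign and call in all of 240 refits, counted over the 4 together. Of these, 48 per probe set left out 1 hour in turn. Others used array centring, quantile normalization, the beta-actin difference as a covariate, or a term for hours 52 to 55. Means of 6 h and autoregressive residuals were also among them, the latter called at an unadjusted p. The mean of all probe sets of a gene was another, which repeated the main fit for Id1 and Id3, with 1 probe set each. Leaving out 1 hour gave slopes of −0.0922 to −0.0895 log2 per hour for Id1, −0.0346 to −0.0330 for Id2, −0.0457 to −0.0437 for Id3 and −0.0121 to −0.0111 for Id4. With the first principal component removed, which carried 41.7% of the variance and correlated with the hour (absolute r = 0.79) and with the beta-actin difference (0.73), slopes were −0.0298, −0.0135, −0.0147 and −0.00387, and the window difference of Id4 missed its test (−0.109, adjusted p = 0.0646). The mean of all 3 Id4 probe sets had a slope of −0.0199. The 24 h amplitude passed at an unadjusted p for Id1 with autoregressive residuals (0.166, p = 0.0369), and with the best period between 20 and 30 h for Id2 (0.135 at 30 h, p = 0.000446), Id3 (0.162 at 30 h, p = 0.00270) and Id4 (0.0502 at 23.4 h, p = 0.0103), where the period was chosen on the same values and 30 h is the end of the range. Curvature of Id4 missed its test without the arrays of high beta-actin difference (0.105, adjusted p = 0.0788). With a quadratic trend the amplitude change between windows was −0.214 for Id3 and 0.04997 for Id4, which was not called in either fit. The joint test of amplitude and phase then gave an adjusted p of 0.139 for Id3, and 16515 probe sets passed it. Without the arrays of high beta-actin difference 13066 probe sets fell, against 7286 with all arrays. The interaction, curvature and list counts under other settings were chosen after seeing the data. The cause of these changes was not tested. The windows were paired by the hour of the cycle, since the labels give no replicate numbers, and without that block the window differences of the 4 leading probe sets kept their calls.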
